A study of Bos taurus with 15 samples.

Results

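The 9 genes described here encode enzymes that make serine and carry its carbon through folate: PHGDH, PSAT1, PSPH, SHMT1, SHMT2, MTHFD1, MTHFD2, MTHFD1L and ALDH1L2. They were taken by symbol from the 17259 genes of a count table of bovine (Bos taurus) blastocysts, and all 9 were among the 11578 genes that passed the filter on low counts. The set was chosen by measured values: PHGDH, PSAT1 and PSPH had stood out between in vitro and in vivo blastocysts in these same libraries, and the other 6 genes complete the pathway. Differences of the 9 genes between in vitro and in vivo libraries are therefore given as description, with no test.

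The RNA was poly(A)-selected, and each of the 3 groups of day 7 blastocysts has 5 libraries. The in vivo group was collected from animals. The manual and automatic groups came from zygotes whose cumulus cells, the follicular cells that surround the oocyte, were stripped off by hand or by an automatic procedure, and which then grew in synthetic oviduct fluid (SOF) medium until day 7. The labels give no genotype, breed or sire, and whether 1 blastocyst or several went into a library is not stated in them. Nothing in them ties the libraries to separate cultures or donors, so each p-value reflects the spread among these particular libraries and that spread may be technical.

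Cells make serine from a glycolytic intermediate in consecutive steps carried out by PHGDH, PSAT1 and PSPH. The SHMT enzymes then split serine into glycine and a single carbon unit held by folate, which the MTHFD enzymes oxidise or reduce in the cytosol and in mitochondria. These carbon units feed the synthesis of purines and thymidylate and the methionine cycle, and they are in demand in dividing cells such as those of an early embryo. ATF4, a transcription factor of the integrated stress response, is known to act on several of these genes.

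Library totals ranged from 17.96 to 41.97 M (mega) counts with a median of 27.6 M. Levels are given as CPM, counts per 1 M of the library total after scaling by its TMM factor, and they are compared for the same gene between libraries, not between genes. In 5 libraries fewer than 9000 genes reached 10 counts: in vivo 2, in vivo 4, manual 2, automatic 2 and automatic 4. These low-detection libraries held 6977 to 8547 such genes and 8.18 to 14.4% of counts on mitochondrial genes, against 9900 to 12610 genes and 3.26 to 9.99% in the other 10. Of the 45 values of the 9 enzymes in the low-detection libraries, 10 lay under 1 CPM and 6 of those were 0. Of the 90 values in the other libraries, 1 lay under 1 CPM. The 5 trophectoderm markers were detected in every group, with summed levels of 12220 to 28010 CPM in vivo, 7573 to 31160 CPM after manual and 3588 to 13300 CPM after automatic denudation. These sums were nearly all KRT8 and KRT18, and by the fit 1 of the 5 markers was higher and 4 were lower in vitro. GATA3 lay at 8.11 to 122.5 CPM in vivo and 8.53 to 159.5 CPM in vitro. CDX2 lay at 1.98 to 26.2 CPM in vivo and 0 to 15.5 CPM in vitro, and TFAP2A at 4.36 to 23.4 and 0 to 6.42 CPM. The 3 epiblast markers summed to 204 to 793 CPM in vivo, 182 to 588 CPM manual and 161 to 722 CPM automatic. These 3 markers did not move together, with 2 higher and 1 lower in vitro by the fit. NANOG, a pluripotency factor, was the lower one, at 161 to 414 CPM in vivo and 4.67 to 106 CPM in vitro. POU5F1 lay at 27.8 to 373 CPM in vivo and 118 to 539 CPM in vitro. SOX2 lay at 5.65 to 16.55 CPM in vivo and 4.41 to 88.5 CPM in vitro. The 4 hypoblast markers summed to 182 to 483, 160 to 340 and 224 to 679 CPM, with GATA4 at most 1.58 CPM and SOX17 at most 0.655 CPM in any library. Markers of cumulus and granulosa cells summed to 10.6 to 223 CPM in vivo, 35.0 to 137 CPM in the manual group and 17.2 to 42.9 CPM in the automatic group, and FOXL2 was at 0 in all libraries. Of the highest sum, in in vivo 4, STAR alone held 179 CPM. Markers of stromal and blood cells summed to 0.306 to 37.2 CPM in vivo, 4.48 to 452 CPM in the manual group and 23.5 to 351 CPM in the automatic group. Different genes carried these sums. The blood marker HBB held 34.7 CPM at the in vivo top, in in vivo 3, and 183.5 CPM at the automatic top, in automatic 2. At the manual top, in manual 1, LUM held 131 CPM and POSTN 249 CPM. The blood marker PTPRC was at 0 in all libraries, and the stromal markers POSTN and COL3A1 were at 0 in all in vivo libraries. The part of these cell types in the differences below was not tested, and in bulk libraries fewer cells of a type and less RNA per cell cannot be told apart.

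PSPH, the phosphatase that releases free serine in the last step of the synthesis, separated the in vitro from the in vivo blastocysts library by library. In vivo libraries 1 to 5 held 5.76, 0, 7.96, 0 and 10.6 CPM. Manual libraries 1 to 5 held 98.7, 222, 138, 125 and 163 CPM, and automatic libraries 1 to 5 held 126, 336, 149, 148 and 240 CPM. Every in vitro library lay above every in vivo library, and the 0 values were in the low-detection libraries in vivo 2 and in vivo 4. Group means were 4.85 ± 4.75 CPM in vivo, 149 ± 46.6 CPM manual and 200 ± 87.8 CPM automatic (SD, n = 5 each). The fitted log2 difference between the mean of the in vitro groups and in vivo was 5.15 ± 1.08 (SE), a 35.4-fold higher level. Manual and automatic blastocysts each contributed, with log2 differences of 4.93 ± 1.11 and 5.36 ± 1.13 against the same in vivo libraries. Without the 5 low-detection libraries the log2 difference was 4.22 ± 0.392 (18.6-fold).

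PHGDH oxidises 3-phosphoglycerate and thereby commits it to serine. It was low in 4 of the 5 in vivo libraries and high in the other. In vivo libraries 1 to 5 held 12.8, 388, 11.3, 0.137 and 11.6 CPM. The manual libraries, in order, held 226, 120, 336, 72.2 and 114 CPM, and automatic libraries 1 to 5 held 213, 112, 298, 0 and 223 CPM. The groups overlapped through low-detection libraries alone: in vivo 2 had the highest PHGDH level of all 15 libraries, and automatic 4 had none. The mean level was 84.7 ± 169 CPM in vivo, 174 ± 107 CPM manual and 169 ± 115 CPM automatic (SD, n = 5 each). With all libraries the log2 difference of in vitro against in vivo was 1.02 ± 1.21. Without in vivo 2 it was 4.27, and without all 5 low-detection libraries it was 4.17 ± 0.505 (18.0-fold). In the libraries that remained, in vivo levels were close together at 11.9 ± 0.778 CPM (SD, n = 3), against 212 ± 93.4 CPM in vitro (SD, n = 7).

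PSAT1, the aminotransferase of the middle step, had a smaller difference with the same library standing apart. In vivo libraries 1 to 5 held 42.0, 480, 46.5, 98.3 and 93.2 CPM. After manual denudation, libraries 1 to 5 held 355, 338, 347, 266 and 306 CPM, and automatic libraries 1 to 5 held 224, 140, 266, 93.5 and 298 CPM. In vivo 2 was again the highest of all 15 libraries, so all 10 in vitro libraries lay within the in vivo range. Of these in vitro libraries, automatic 4 alone lay under the highest of the remaining in vivo libraries, in vivo 4. The manual libraries were close together, with a mean of 322 ± 36.7 CPM (SD, n = 5), while the in vivo mean of 152 ± 185 CPM and the automatic mean of 204 ± 85.4 CPM had wider spreads. The log2 difference of in vitro against in vivo was 0.76 ± 0.499 with all libraries, 1.89 without in vivo 2, and 2.26 ± 0.32 (4.78-fold) without the 5 low-detection libraries. In that smaller set the means were 60.6 ± 28.3 CPM in vivo (SD, n = 3) and 294 ± 46.9 CPM in vitro (SD, n = 7).

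**Figure D1:**
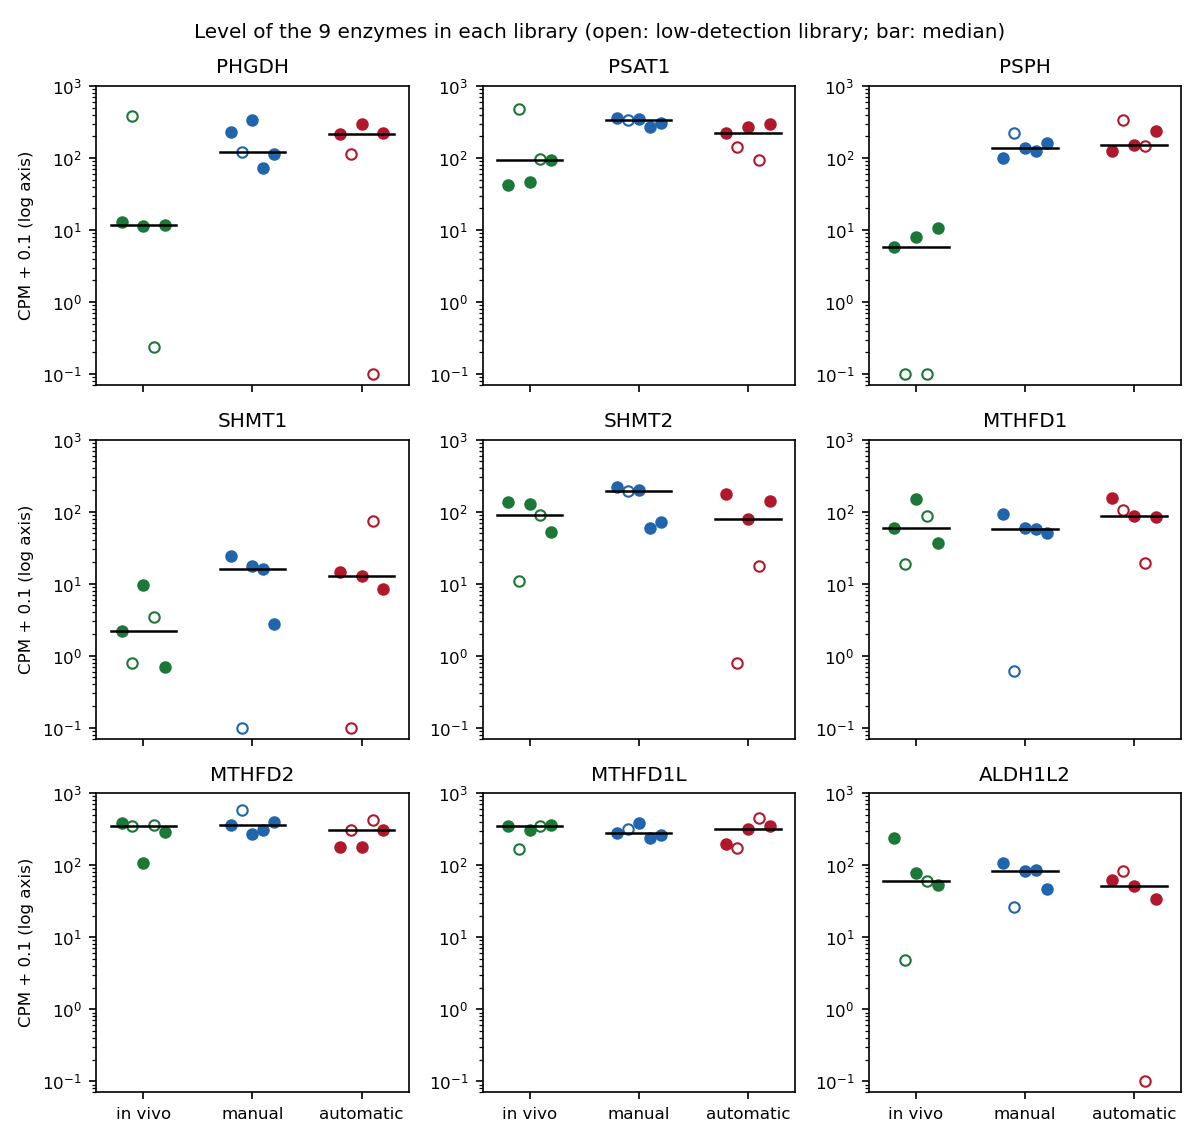
Level of each enzyme in each library (CPM + 0.1 on a log axis) by group, with open circles for the 5 low-detection libraries and a bar at the group median. PSPH is the enzyme whose in vitro points all lie above its in vivo points, and the 3 filled in vivo points of PHGDH sit near 11.9 CPM with 1 open point far above them and 1 far below.

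In vivo 2 did not carry the 3 serine synthesis enzymes in step. It held the highest PHGDH and PSAT1 levels of the series and a PSPH level of 0. Its TMM factor was 0.543, against 0.782 to 1.24 in the other 14 libraries. Of 8052 genes at 5 CPM or more by the median of the other in vivo libraries, 225 (2.79%) stood over 10-fold above that median in in vivo 2. The same share was 0.0265 to 0.189% in the other in vivo libraries. PHGDH in in vivo 2 stood 33.8-fold and PSAT1 6.87-fold above the median of the remaining in vivo libraries. The part of library quality in these values was not tested.

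Counting libraries rather than fitting means, PSPH was the member whose 10 in vitro libraries all exceeded all 5 in vivo libraries, 1 of 9 genes, where 0.199% of all genes tested did so. Without the low-detection libraries this held for PHGDH, PSAT1 and PSPH, 3 of 9 genes, against 2.09% of all genes. Over all genes tested, edgeR called 0.0173% (2 of 11578) for in vitro against in vivo at an adjusted p under 0.05. No calls are counted for the 9 genes and nothing is read from these shares, since the set was selected on this contrast.

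The cytosolic and mitochondrial serine hydroxymethyltransferases, which turn serine into glycine, varied widely between libraries. SHMT1, the cytosolic form, held 2.11, 0.689, 9.57, 3.34 and 0.587 CPM in in vivo libraries 1 to 5. Manual blastocysts held, in library order, 24.4, 0, 17.5, 15.9 and 2.63 CPM, and automatic libraries 1 to 5 held 14.2, 0, 12.8, 75.1 and 8.21 CPM. Of the 10 in vitro libraries, 6 exceeded the highest in vivo value and 2, both at 0, were under the lowest. The log2 difference was 2.32 ± 1.5 with all libraries and 1.72 ± 0.969 without the low-detection libraries, and leaving out single libraries moved it between 1.66, without automatic 4, and 3.27, without in vivo 3.

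SHMT2, the mitochondrial form, held 135, 10.9, 128, 89.9 and 52.0 CPM in in vivo libraries 1 to 5. Manual libraries 1 to 5 held 219, 196, 199, 58.7 and 71.8 CPM, and automatic libraries 1 to 5 held 176, 0.701, 80.0, 17.2 and 139 CPM. The groups overlapped, and low-detection libraries held the 3 lowest values. Means were 83.0 ± 52.2 CPM in vivo, 149 ± 77.0 CPM manual and 82.4 ± 75.4 CPM automatic (SD, n = 5 each). The log2 difference of in vitro against in vivo was 0.42 ± 0.77, and 0.36 ± 0.469 without the low-detection libraries.

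MTHFD1, the cytosolic enzyme with 3 activities that interconverts the carbon units on folate, had overlapping ranges in all groups. In vivo libraries 1 to 5 held 59.9, 18.4, 148, 85.8 and 36.7 CPM. The manual libraries, in order, held 93.8, 0.516, 59.4, 57.4 and 51.0 CPM, and automatic libraries 1 to 5 held 152, 105, 86.4, 19.2 and 84.7 CPM. A single in vitro library, automatic 1, exceeded all in vivo libraries, and a single one, manual 2, lay below all of them. The log2 difference was -0.03 ± 0.718 with all libraries and 0.06 ± 0.416 without the low-detection libraries.

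Of the mitochondrial enzymes of the folate branch, MTHFD2 and MTHFD1L were present in every library. MTHFD2, the dehydrogenase and cyclohydrolase that is abundant in embryonic and proliferating cells, held 388, 354, 106, 364 and 288 CPM in in vivo libraries 1 to 5. After manual denudation, libraries 1 to 5 held 366, 583, 274, 310 and 401 CPM, and automatic libraries 1 to 5 held 180, 310, 176, 426 and 304 CPM. All groups overlapped, and the log2 difference of in vitro against in vivo was 0.13 ± 0.328, with a 95% interval of -0.56 to 0.82.

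MTHFD1L releases the carbon unit from mitochondria as formate. It held 349, 166, 312, 350 and 364 CPM in in vivo libraries 1 to 5. Manual blastocysts held, in library order, 279, 323, 390, 242 and 266 CPM, and automatic libraries 1 to 5 held 194, 173, 323, 454 and 352 CPM. The 3 group means differed by less than their SDs, at 308 ± 81.5 CPM in vivo, 300 ± 58.1 CPM manual and 299 ± 117 CPM automatic (SD, n = 5 each). The log2 difference of in vitro against in vivo was -0.04 ± 0.291, with a 95% interval of -0.65 to 0.57.

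ALDH1L2 oxidises the folate-bound carbon unit to CO2 in mitochondria and yields NADPH. In vivo libraries 1 to 5 held 240, 4.75, 76.8, 60.6 and 53.4 CPM. Manual libraries 1 to 5 held 109, 26.1, 81.7, 86.9 and 45.9 CPM, and automatic libraries 1 to 5 held 62.2, 81.7, 51.7, 0 and 33.6 CPM. No in vitro library exceeded in vivo 1, and the groups otherwise overlapped. The log2 difference was -0.62 ± 0.881 with all libraries and -0.97 ± 0.438 without the low-detection libraries, and leaving out single libraries moved it between -0.90, without in vivo 2, and 0.21, without in vivo 1.

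**Figure D2:**
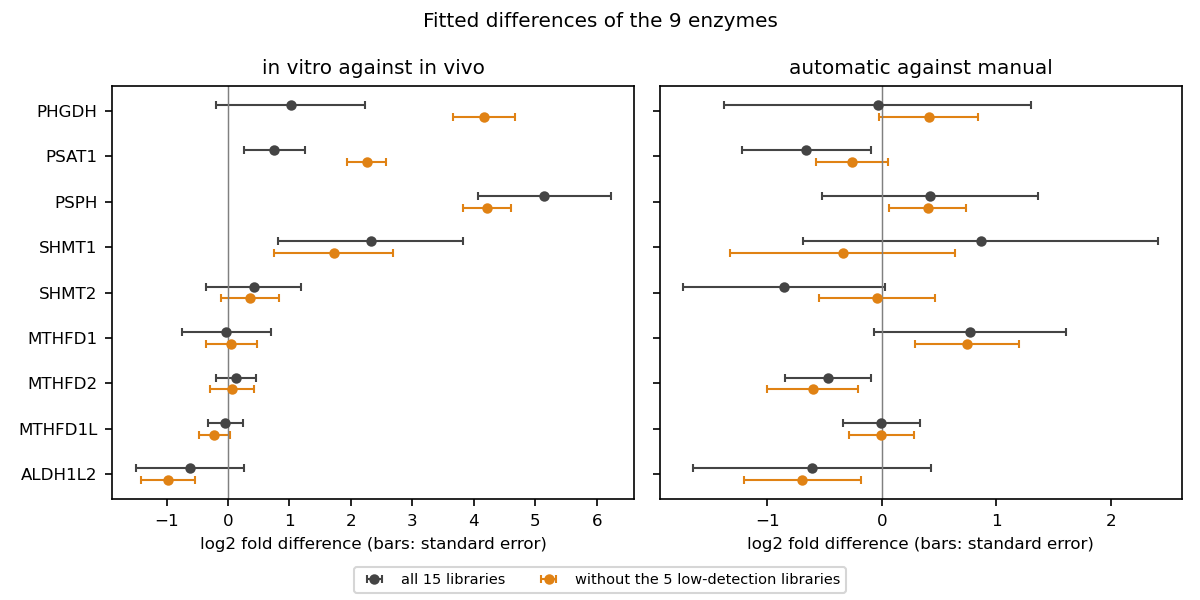
Fitted log2 fold differences of the 9 enzymes for in vitro against in vivo (left) and automatic against manual (right), with standard errors, from all 15 libraries (grey) and from the 10 libraries left without the low-detection ones (orange). On the left PHGDH moves from 1.02 to 4.17 and PSAT1 from 0.76 to 2.26 when those libraries are left out, while PSPH stays above 4 and the MTHFD genes stay near 0.

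The comparison of automatic with manual denudation took no part in the choice of the genes and was tested. Neither method gave a difference in any of the 9 enzymes that passed the test (edgeR adjusted p = 0.9999 for each), and the background was the same, with 0% of 11578 genes called. DESeq2, limma-voom and the other settings tried, 24 in all, called 0 of the 9 as well. At an unadjusted edgeR p under 0.05 there were 0 of the 9 enzymes and 171 of all genes (1.48%). Of the 9 enzymes 3 were higher and 6 lower after automatic denudation, where PHGDH changed sign when scaled by library size alone and MTHFD1L by that and by DESeq2-type size factors. The median log2 difference of the 9 was -0.04, beside 47.1% of genes higher and a median of -0.05 over all genes. No member had non-overlapping automatic and manual libraries, as 0.665% of all genes did.

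The intervals of these differences show what the libraries could resolve. MTHFD1L had a log2 difference of -0.00 ± 0.337 (95% interval -0.71 to 0.70), the narrowest of the 9. For MTHFD2 it was -0.47 ± 0.378 (-1.26 to 0.32), with the smallest unadjusted p of the 9, 0.23 in edgeR. PSAT1, with a mean of 204 CPM against 322 CPM, gave -0.66 ± 0.56 (-1.83 to 0.52). PSPH gave 0.42 ± 0.941 (-1.55 to 2.39) and SHMT2 gave -0.85 ± 0.88 (-2.7 to 0.99). PHGDH and SHMT1 were the least resolved, with intervals of -2.84 to 2.76 and -2.38 to 4.12, and without automatic 4 both changed sign, to 0.31 and -0.44. A p above the threshold does not show that the denudation methods act alike on these genes.

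Within groups, the level of each enzyme was also tested against the number of genes detected per library, as the log2 change for each 1000 more genes. None of the 9 passed the edgeR test with all genes adjusted together (0 of 9, where 7.86% of all genes passed). At an unadjusted p under 0.05 there were 2 of 9 enzymes (22.2%), beside 23.8% of all genes. MTHFD2 was lower where more genes were detected, at -0.23 ± 0.0701 (edgeR adjusted p = 0.0542), and SHMT2 was higher there, at 0.52 ± 0.217 (adjusted p = 0.153). MTHFD1 gave 0.40 ± 0.192 (edgeR adjusted p = 0.213). DESeq2 called MTHFD2 (adjusted p = 0.00488) and SHMT2 (adjusted p = 0.0304), and limma-voom called MTHFD2 (adjusted p = 0.0230). Both tools also called a much larger share of all genes than edgeR did, as given below under the dependence on processing. These calls therefore set neither gene apart from the rest. For MTHFD2 the edgeR call also passed with DESeq2-type size factors, with a filter of 1 CPM in 5 libraries, without in vivo 1 and without manual 3. PSPH gave 0.11 ± 0.257 and MTHFD1L 0.00 ± 0.087, on the same scale.

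Genes around the pathway were taken from 6 lists of 78 symbols, of which 63 passed the filter. For in vitro against in vivo, edgeR called 0 of the 63, as did DESeq2, limma-voom and every other setting tried, and 4 (6.35%) had an unadjusted p under 0.05, beside 6.13% of all genes. Of the 63, 30 were higher and 33 lower in vitro, with a median log2 difference of -0.04, beside 48.2% higher and a median of -0.04 over all genes. Enzymes and carriers of folate other than the members were lower more often than higher, 11 against 4 of 15 (26.7% higher, where 48.2% of all genes were), with a median of -0.29. FOLR1, a folate receptor, had a log2 difference of -0.49 ± 0.309, and SLC19A1, the reduced folate carrier, -1.10 ± 0.712. The glycine cleavage system, which frees a carbon unit from glycine, had 1 of 4 genes higher with all libraries, GLDC at 0.62 ± 0.835, and GCSH was at -0.21 ± 0.655. Without the low-detection libraries GLDC was at 1.40 ± 0.654 and GCSH turned to 0.78 ± 0.391, with DLD at 0.02 ± 0.292 and AMT at -0.34 ± 0.378. GCSH had stood at 6698 CPM in in vivo 2, a low-detection library.

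All 4 genes at an unadjusted p under 0.05 belonged to the list of serine and glycine use and transport, where 10 of 16 genes were higher and the median was 0.23. SLC1A4, a carrier of neutral amino acids including serine, had a mean of 7.81 ± 11.4 CPM in vivo, 51.3 ± 34.0 CPM manual and 88.8 ± 52.9 CPM automatic (SD, n = 5 each). Its log2 difference was 3.11 ± 1.25 (edgeR adjusted p = 0.703). SLC1A5, the related glutamine carrier that also takes serine, had means of 20.7 ± 19.4, 91.8 ± 40.7 and 113 ± 64.9 CPM in the same order, and a log2 difference of 2.29 ± 0.939 (edgeR adjusted p = 0.722). SARS1, which charges transfer RNA with serine, had means of 237 ± 54.0, 328 ± 134 and 451 ± 115 CPM and a log2 difference of 0.70 ± 0.296 (edgeR adjusted p = 0.75). SLC6A9, a glycine carrier, was at 0 in 4 in vivo libraries and at 0.102 CPM in in vivo 3, against 0 to 3.25 CPM in vitro (edgeR adjusted p = 0.697). SLC1A5 and SARS1 were named after their values were seen.

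**Figure D3:**
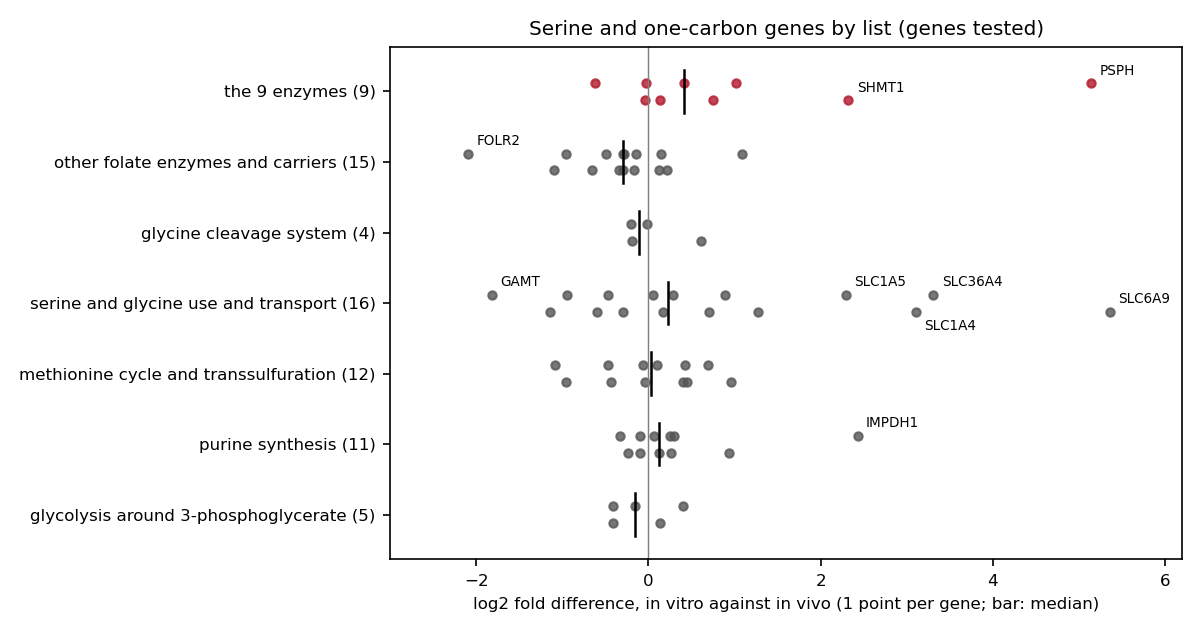
Log2 fold difference of in vitro against in vivo for the 9 enzymes (red) and the 63 other genes tested in 6 lists (grey), 1 point per gene, with a bar at each list's median. Medians of the 6 other lists lie between -0.29 and 0.23, and the carriers SLC1A4, SLC1A5, SLC36A4 and SLC6A9 lie to the right within the list of serine and glycine use.

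The pathways that consume or supply the carbon units were spread around 0. Methionine cycle and transsulfuration genes were 6 higher and 6 lower, with MAT2A, which makes S-adenosylmethionine, at 0.40 ± 0.316 and AHCYL2 at -0.96 ± 0.51. Without the low-detection libraries MAT2A was at 0.17 ± 0.33 and AHCYL2 at -0.06 ± 0.274. AHCYL2 had stood at 564 CPM in in vivo 2, a low-detection library. Purine synthesis genes were 7 higher and 4 lower, with GART, an enzyme that uses folate-bound carbon, at 0.94 ± 0.466 and IMPDH1, which acts on the way to guanine nucleotides, at 2.43 ± 1.6. Of the 5 glycolytic genes next to 3-phosphoglycerate, 2 were higher and 3 lower, with PGK1 at 0.40 ± 0.246 and PKM at -0.41 ± 0.359. No gene of these 3 lists had an unadjusted edgeR p under 0.05.

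Genes of the integrated stress response were higher in vitro in 8 of 10 cases, beside 48.2% of all genes, with a median log2 difference of 1.45. The lower ones were PPP1R15A, at -2.16 ± 0.907, and CEBPB, at -1.215 ± 1.13. Without the low-detection libraries PPP1R15A was at -0.64 ± 0.542 and CEBPB at -0.49 ± 1.31. The list was chosen with earlier results of these data known, so no support is drawn from this count. Among the 10 genes, edgeR called 1. CHAC1, which degrades glutathione, was that gene: it lay at 0 in 4 in vivo libraries and at 0.102 CPM in in vivo 3, and between 6.21 and 33.7 CPM in all in vitro libraries (edgeR adjusted p = 0.0415). That call ended in most fits that left out a single library, with adjusted p up to 0.265 without in vivo 4. It also ended with scaling by library size alone (adjusted p = 0.0683) and with a replicate block (adjusted p = 0.076) in edgeR, and held in DESeq2 and limma-voom. ASNS, which makes asparagine, had means of 70.9, 353 and 540 CPM in vivo, manual and automatic, with a log2 difference of 2.62 ± 0.651, and ATF4 had means of 347, 659 and 663 CPM, with 0.93 ± 0.303. In in vivo 2, where PHGDH and PSAT1 were highest, ASNS lay at 2.99 CPM, ATF4 at 257 CPM and CHAC1 at 0, each the lowest or at the lowest level of the 15 libraries.

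**Figure D4:**
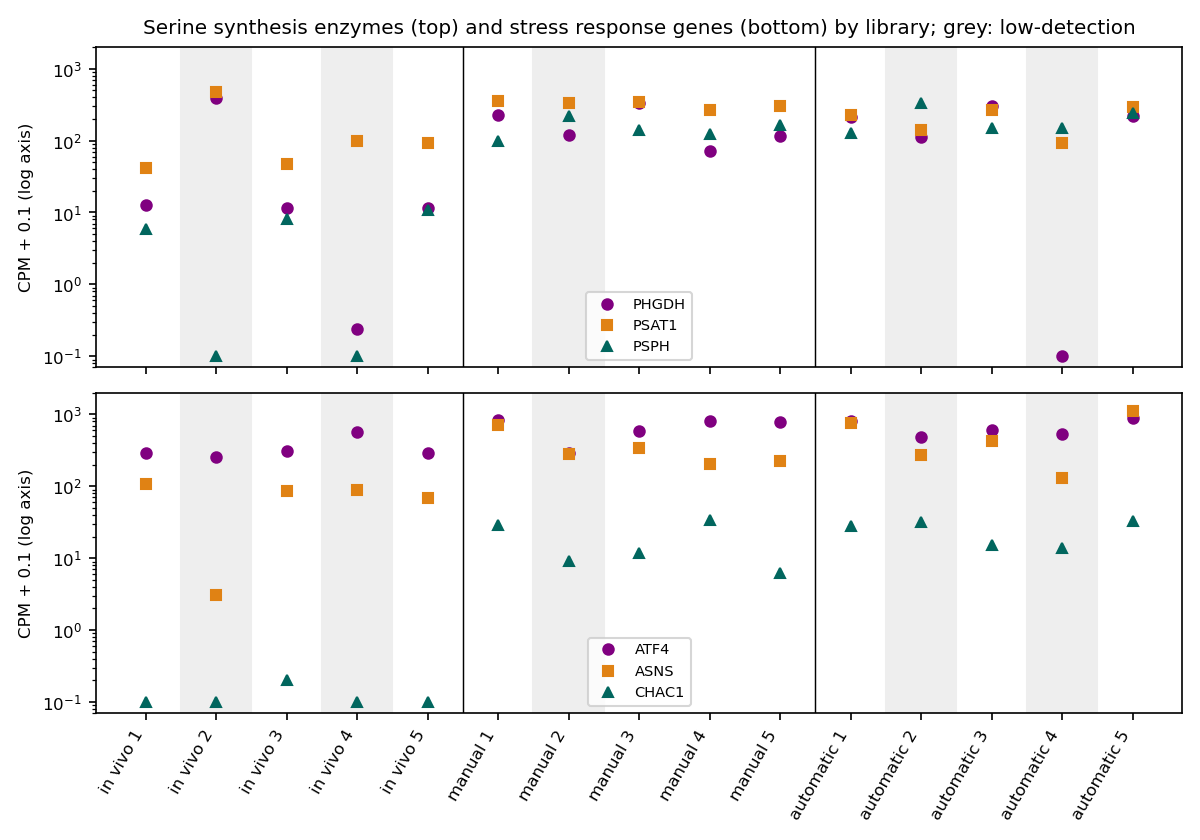
Level (CPM + 0.1 on a log axis) of PHGDH, PSAT1 and PSPH (top) and of ATF4, ASNS and CHAC1 (bottom) in each of the 15 libraries, with low-detection libraries on grey. In in vivo 2 PHGDH and PSAT1 stand at 388 and 480 CPM while PSPH and CHAC1 are at 0 and ASNS is at 2.99 CPM.

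The genes most like each serine synthesis enzyme were ranked by Pearson's r of log2 CPM over the 15 libraries, which share group, depth and detection, among 11577 genes. Most like PSPH were ASZ1 (r = 0.957), CARS1 (0.945), PYCR1 (0.940), MFN1 (0.939) and SMIM14 (0.933). CARS1 charges transfer RNA with cysteine, and PYCR1 makes proline. PYCR1 had means of 1.41 ± 2.24 CPM in vivo, 27.7 ± 10.3 CPM manual and 38.8 ± 23.3 CPM automatic (SD, n = 5 each). Most like PSAT1 were GARS1 (r = 0.805), EIF2S2 (0.797), ADGRG6 (0.797), TARS1 (0.795) and TIPRL (0.770). GARS1 and TARS1 charge transfer RNA with glycine and threonine. Most like PHGDH were SEC22B (r = 0.904), RTP3 (0.897), IFNGR1 (0.887), USB1 (0.872) and RNF216 (0.866). Over all 15 libraries the 3 enzymes were not one another's nearest genes: PSAT1 ranked 252 in likeness to PHGDH and PHGDH 25 in likeness to PSAT1 (r = 0.679), and PHGDH ranked 2704 (r = 0.333) and PSAT1 3695 (r = 0.244) in likeness to PSPH. These ranks include in vivo 2, with PHGDH at 388, PSAT1 at 480 and PSPH at 0 CPM. They also include automatic 4, with PHGDH at 0 and PSPH at 148 CPM. Without the low-detection libraries, each of the 3 enzymes had all in vitro above all in vivo libraries, and likeness in that set was not tested.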

How the data were processed

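Poly(A) RNA of 15 libraries was read from 1 deposited table of counts, estimated per gene and given as whole numbers; FastQC, fastp and kallisto are named per the submitters' processing notes, and because kallisto estimates counts the deposited values were treated as estimated counts. Rounding changed 0 values. Estimated counts can divide reads that match more than 1 gene, and how far this touches related members was not tested. For the transcript set, the build and how molecular identifiers were used, the sources used here state nothing. RNA had an integrity number of at least 8.4, with 50 to 100 ng per library, per the labels' protocols. A line without a gene name held 0 values and was left out.

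A single fit of all 15 libraries, with 1 mean for each group, was made in edgeR 4.0.16 (R 4.3.3): TMM, filterByExpr (11578 of 17259 genes kept), robust dispersions and quasi-likelihood F test, Benjamini-Hochberg over all genes, called under 0.05. SE is the absolute log2 difference divided by the square root of F. Genes detected (at least 10 counts) entered a separate fit as a covariate beside the groups. DESeq2 1.42.0, limma-voom (limma 3.58.1), other scalings, filters, a replicate block and left-out libraries were alternatives. The fits were tried on simulated counts whose dispersion was capped so that known changes could be recovered. How they perform at the uncapped spread of these libraries was not tested. Likeness used log2 CPM with a prior count of 2. The members and lists were chosen with earlier results of these data known. Other pathway genes were named by a rule: from each list the 2 with the smallest unadjusted p for in vitro against in vivo.

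The smallest chi-square per degree of freedom between libraries of a group was 184, so none of these pairs was a single library sequenced again. Whether separate libraries came from the same blastocyst or the same RNA cannot be told from this value.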

Additional observations from a re-analysis of the deposited data

Results flagged for a closer look

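In 27 groups of 5 values (9 enzymes in 3 groups), 4 values, in 2 libraries, stood apart from the rest of their group by Dixon's ratio of gap to range. The critical value was 0.71, which about 1 in 20 groups of independent normal values would pass. These groups share libraries, and whether CPM values are normal was not tested, so no excess over that rate is read. PHGDH in in vivo 2 was at 387.5 CPM with a ratio of 0.967. PSAT1 in in vivo 2 was at 480 CPM with a ratio of 0.871. MTHFD1L was low in the same library, at 166.5 CPM with a ratio of 0.738. SHMT1 in automatic 4 was at 75.1 CPM with a ratio of 0.81. Both libraries are low-detection libraries.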

How the results depend on the processing

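For in vitro against in vivo, edgeR called 2 genes with all libraries, 0 by library size alone, 87 in DESeq2, 15 in limma-voom, 8 with a replicate block, 7 without the low-detection libraries, 7 with genes detected as a covariate, and 0 to 7 with single libraries left out. For automatic against in vivo, 2 genes became 0 by library size alone, 87 in DESeq2, 9 in limma-voom, 1 with no filter, 7 with a replicate block, 9 without the low-detection libraries and 0 to 4 with single libraries left out. For manual against in vivo, 0 became 44 in DESeq2, 1 in limma-voom, 1 with a replicate block and 3 without the low-detection libraries. For automatic against manual, 0 became 9 in DESeq2 and 1 without the low-detection libraries. For genes detected, 910 became 2943 in DESeq2, 2296 in limma-voom and 0 with a replicate block. PSPH was the 1 enzyme with all in vitro above all in vivo libraries, and 3 enzymes were so without the low-detection libraries. With single libraries left out, automatic against manual log2 differences ran from -0.3257 to 0.3629 for PHGDH, -0.4388 to 1.311 for SHMT1 and -0.1885 to 0.1452 for MTHFD1L. PHGDH also turned positive by library size alone (0.09665), without the low-detection libraries (0.4111) and with genes detected as a covariate (0.1375), SHMT1 turned to -0.342 without the low-detection libraries, and MTHFD1L turned to 0.01791 with DESeq2-type size factors, 0.05492 by library size alone and 0.01787 in DESeq2. Log2 changes per 1000 genes detected ran, with single libraries left out, from -0.5236 to 0.5528 for PHGDH, -0.3194 to 0.08236 for PSAT1, -0.04532 to 0.2162 for PSPH, -0.107 to 1.035 for SHMT1 and -0.04264 to 0.09391 for MTHFD1L. They turned in limma-voom for PHGDH (0.5303), PSAT1 (0.01848) and PSPH (-0.1174), and with a replicate block for PHGDH (1.477), PSAT1 (0.03893), SHMT1 (-0.317) and MTHFD1L (-0.1637). MTHFD1L was also at -0.01208 with DESeq2-type size factors, -0.01209 in DESeq2, -0.002644 with the 1 CPM filter and -0.01174 counting genes with 1 or more counts. For in vitro against in vivo, 4 of 216 values moved by more than the SD within groups: PSAT1 at 1.79 in limma-voom, 1.89 without in vivo 2 and 2.26 without the low-detection libraries, and PSPH at 7.57 in limma-voom. That SD is wide for PHGDH, whose 1.02 became 3.46 in limma-voom, 3.55 with a replicate block, 1.91 by library size alone and 1.88 with genes detected as a covariate. SHMT1 fell from 2.32 to 1.02 in limma-voom and 1.16 with a replicate block. Signs turned for SHMT2 in limma-voom (-0.18), MTHFD1 without in vivo 3 (0.44), MTHFD2 without in vivo 3 (-0.09) and ALDH1L2 without in vivo 1 (0.21), and, by library size alone, for MTHFD1 (0.03) and MTHFD1L (0.04), which reached at most 0.13 under the other settings that turned them. The causes were not tested. The main fits did not take replicate numbers as pairs, although libraries of the same number were somewhat alike. Their deviations correlated with r of 0.00137 to 0.38 (median 0.122, 8 of 15 pairs over 0.1). For other numbers the median was -0.027 (7 of 60 over 0.1), and 8 of 15 libraries correlated best with their own number. Replicate 2 was a low-detection library in every group, and replicate 4 in the in vivo and automatic groups. Whether libraries of the same number share a batch was not tested. Values near 0 rest on few counts, and 10 of those under 1 CPM were in low-detection libraries against 1 in the others.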

Other observations

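Missing values of abundant genes were concentrated in low-detection libraries. Of 1607 genes with a median of at least 100 CPM in the other 10 libraries, 56 (3.48%) lay under 1 CPM in automatic 4, 32 (1.99%) in in vivo 2, 24 (1.49%) in automatic 2, 7 (0.436%) in in vivo 4 and 2 (0.124%) in manual 2. In the other 10 libraries the count was 0. PHGDH at 0 in automatic 4 and SHMT2 at 0.701 CPM in automatic 2 are among these cases. So are PSPH at 0 in in vivo 2 and in vivo 4, and PHGDH at 0.137 CPM in in vivo 4. PSPH and PHGDH reached the median of 100 CPM through in vitro libraries. In the in vivo libraries that are not low-detection, PSPH lay at 5.76 to 10.6 CPM and PHGDH at 11.3 to 12.8 CPM. The genes were picked by their level in the other 10 libraries, which by itself makes values under 1 CPM rarer there. Genes over 10-fold above the median of the rest of the group numbered 225 (2.79%) in in vivo 2, 132 (1.65%) in automatic 4, 32 (0.403%) in automatic 2, 16 (0.195%) in manual 2 and 15 (0.189%) in in vivo 4, against 0 to 14 (0.177%, in manual 3) in the other 10 libraries.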
